A study of Homo sapiens with 8 samples.

Results

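Simple epithelial keratins were followed in MCF10A cells as 4 genes, KRT7, KRT8, KRT18 and KRT19, chosen by name out of 29991 entries in the expression table, which held 55 keratin genes in all. MCF10A is an immortalised, non-tumorigenic human breast epithelial line. The cells received a control siRNA (siControl), siRNA that targets LATS1 and LATS2, the kinases of the Hippo pathway (siLATS1/2), siRNA that targets the tumour suppressor p53 (sip53), or siRNA for all of these (siLATS1/2/p53). Each of the 4 groups held 2 polyA RNA-seq libraries, 1 from each of 2 independent batches of the cells, so 8 libraries came from 1 line. The series title names LATS kinases, p53 and cell migration as its subject. All levels are the authors' deposited values, taken here as log2, with a lowest value of 5 that is written wherever a gene was not above it, called the floor below. Testing required values over the floor in 2 or more libraries, which 3 of the 4 keratins met. KRT19 was at the floor in all 8.

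Keratins are the intermediate filament proteins of epithelial cells. Filaments are built from pairs of a type II and a type I chain, so the amounts of the partners matter to each other. KRT8 (type II) and KRT18 (type I) form the basic pair of simple, single-layered epithelia, while KRT7 (type II) and KRT19 (type I) are added in ducts and glands. In the breast these keratins mark the luminal layer, and KRT5 and KRT14 mark the basal layer. LATS1 and LATS2 phosphorylate the transcriptional coactivators YAP and TAZ and so hold them out of the nucleus, and p53 is a transcription factor activated by cellular stress.

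Keratin genes resemble each other, which bears on how short reads can be assigned. KRT7, KRT8 and KRT18 lie on chromosome 12 and KRT19 on chromosome 17 in GENCODE release 29 (build GRCh38, not the hg19 build named in the submitters' processing notes). KRT7 spans 52232520 to 52252186 on the plus strand, KRT8 spans 52897187 to 52949954 on the minus strand, KRT18 spans 52948871 to 52952901 on the plus strand, and KRT19 spans 41523617 to 41528308 on the minus strand. Aligned coding sequences were 76.6% identical between the type II genes KRT8 and KRT7, with a longest shared run of 41 bases, and 67.0% identical between the type I genes KRT18 and KRT19, with a longest shared run of 17 bases. The most alike 60-base coding window of the type I genes KRT18 and KRT19 is shown as an example of this likeness between a measured gene and one at the floor. It is in the 5′ to 3′ direction of the transcript, and capitals mark the bases that differ between the genes.
KRT18, coding bases 235 to 294: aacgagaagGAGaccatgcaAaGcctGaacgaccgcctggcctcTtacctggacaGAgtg
KRT19, coding bases 235 to 294: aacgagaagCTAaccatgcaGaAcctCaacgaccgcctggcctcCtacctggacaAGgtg

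The KRT18 and KRT19 windows matched at 51 of 60 bases. The most alike window of KRT8 and KRT7, not printed here, was closer and matched at 58 of 60. Whether reads were assigned to the wrong gene of a pair was not tested. KRT8 and KRT18 are also neighbours on opposite strands. Their exons, pooled over all annotated transcripts, share 525 bases, 7.63% of the 6881 of KRT8 and 16.31% of the 3218 of KRT18. The single transcripts used below for length are shorter, at 1882 and 1562 bases, and the overlap of these 2 was not measured. The library kit does not mark the strand, so reads from that stretch cannot be told apart. GENCODE lists 50 pseudogenes of KRT8 and 68 of KRT18, with median identities of 91.5% and 91.3% to the parent gene, 5 of KRT19, and 0 of KRT7. All 6 keratin pseudogene entries of the table were at the floor in every library. Only 1 of them belongs to KRT8, 1 to KRT18 and 1 to KRT19, so reads from most of these copies could not be checked.

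The LATS1/2 knockdown was visible in the targeted genes. LATS1 was at 9.54 and 9.64 in siControl, 7.93 and 8.10 in siLATS1/2, 9.87 and 9.94 in sip53, and 7.97 and 7.90 in siLATS1/2/p53. LATS2 was at 9.92 and 10.22, 8.72 and 8.63, 9.74 and 10.00, and 8.75 and 8.81 in the same order. All 4 libraries labelled with LATS1/2 siRNA were below all 4 others in both genes. Depth estimated from the spacing of low values was 11.3 to 37.1 M reads a library and was lowest in siControl replicate 1 and siLATS1/2/p53 replicate 1. All 7 markers fixed for this epithelium were above the floor. Of 6 fibroblast markers, COL1A2, COL3A1, LUM and PDGFRB were at the floor in all 8 libraries, and the summed linear signal of the list ran from 325 to 1090 in siControl, 175 to 449 in siLATS1/2, 168 to 873 in sip53 and 181 to 537 in siLATS1/2/p53. Of 6 blood and endothelial markers only CD68 was above the floor, and the list's sum ran from 441 to 653.

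KRT7 was the most abundant of the 4 keratins in every group, followed by KRT18 and KRT8, and KRT19 was not detected above the floor. Levels were divided by transcript length for this comparison between genes. In siControl the mean log2 level per kilobase was 13.27 for KRT7, 10.26 for KRT18 and 8.65 for KRT8. With siLATS1/2 the values were 13.65, 10.95 and 10.63, with sip53 they were 12.61, 10.43 and 8.72, and with siLATS1/2/p53 they were 13.47, 11.25 and 10.92. KRT18 lay above KRT8 in both libraries of siControl and sip53 without overlap. In siLATS1/2 the per-kilobase linear levels of KRT8, 1943.9 and 1298.6, overlapped those of KRT18, 2275.9 and 1727.4. They overlapped in siLATS1/2/p53 as well, at 2353.7 and 1584.7 for KRT8 and 2629.4 and 2267.4 for KRT18. That overlap was between libraries of different batches. Within each library of both groups, KRT18 was above KRT8 on this scale. KRT19 at its floor corresponds to no more than 23.0 on the same linear scale. For reference, the basal keratin KRT5 had a mean log2 level per kilobase of 14.76 in siControl, above KRT7.

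**Figure D1:**
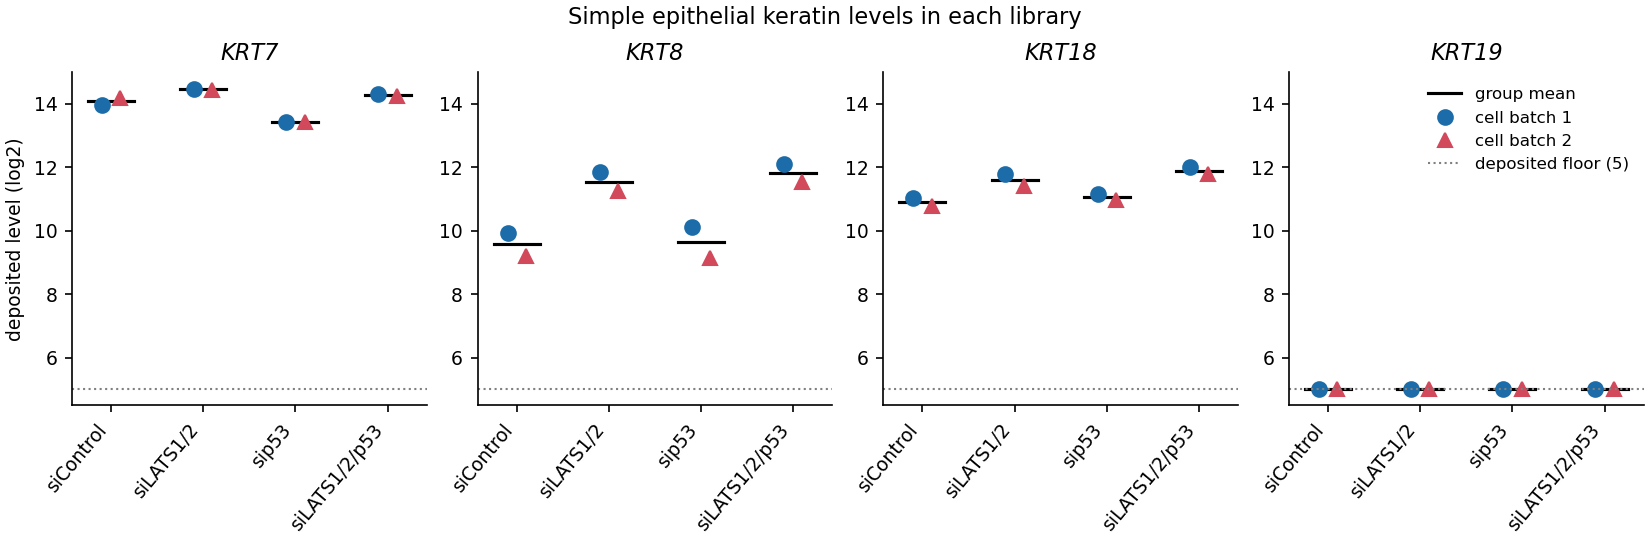
Deposited log2 level (vertical axis) of the 4 simple epithelial keratins in each of the 8 libraries, by siRNA group; circles are cell batch 1, triangles cell batch 2, black bars the group mean of 2 libraries and the dotted line the floor of 5. KRT8 and KRT18 sit higher in both groups that received LATS1/2 siRNA, KRT7 is lowest in sip53 at 13.43 and 13.42, and KRT19 stays at 5.

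KRT8, the type II chain of the simple epithelial pair, was the member that changed most. Its log2 levels were 9.92 and 9.22 in siControl, 11.84 and 11.26 in siLATS1/2, 10.12 and 9.15 in sip53, and 12.11 and 11.54 in siLATS1/2/p53. All 4 libraries with LATS1/2 siRNA were above all 4 without it, while siControl and sip53 overlapped each other, as did siLATS1/2 and siLATS1/2/p53. On the linear scale this is 965 and 595 in siControl against 3658 and 2444 in siLATS1/2. KRT8 rose by 1.98 ± 0.38 (log2 difference ± SE, n = 2 libraries a group, 95% interval 1.08 to 2.88, 3.94-fold) with siLATS1/2, at an adjusted p of 0.0276 in limma. It rose by 2.26 ± 0.38 (1.36 to 3.16, 4.80-fold, adjusted p = 0.011, limma) in siLATS1/2/p53 over siControl. Between siLATS1/2/p53 and sip53, where p53 siRNA was present on both sides, it rose by 2.20 ± 0.38 (1.30 to 3.09, 4.58-fold, adjusted p = 0.027, limma). With sip53 alone the difference was 0.07, with an interval of -0.83 to 0.96 (adjusted p = 0.951, limma).

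The wide intervals of KRT8 go with a difference between the cell batches. Batch 2 minus batch 1 was -0.70 in siControl, -0.58 in siLATS1/2, -0.97 in sip53 and -0.57 in siLATS1/2/p53. For KRT18 these values were -0.27, -0.40, -0.20 and -0.21, so both partners were lower in batch 2 in every group. Within each batch the rise with siLATS1/2 was 1.92 and 2.04, and the rise with siLATS1/2/p53 over siControl was 2.20 and 2.33. In fits to 7 libraries the siLATS1/2 call was lost without siControl replicate 1 (2.33, adjusted p = 0.0574), siControl replicate 2 (1.63, 0.107), siLATS1/2 replicate 1 (1.69, 0.18) or siLATS1/2 replicate 2 (2.27, 0.0741), all by limma. The siLATS1/2/p53 call against siControl was lost without siLATS1/2/p53 replicate 1 (1.98, adjusted p = 0.0765), and the call against sip53 without sip53 replicate 2 (1.71, 0.129), siLATS1/2/p53 replicate 1 (1.91, 0.161) or siLATS1/2/p53 replicate 2 (2.48, 0.111).

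KRT18, the type I partner of KRT8, rose in the same comparisons by smaller amounts. Its levels were 11.04 and 10.77 in siControl, 11.80 and 11.40 in siLATS1/2, 11.17 and 10.97 in sip53, and 12.00 and 11.79 in siLATS1/2/p53. The lowest library with LATS1/2 siRNA, at 11.40, was above the highest without it, at 11.17. KRT18 rose by 0.69 ± 0.16 (0.31 to 1.07, 1.62-fold, adjusted p = 0.0464, limma) with siLATS1/2 and by 0.99 ± 0.16 (0.61 to 1.37, 1.99-fold, adjusted p = 0.00963, limma) with siLATS1/2/p53. Against sip53, siLATS1/2/p53 was higher by 0.83 ± 0.16 (0.45 to 1.20, 1.77-fold, adjusted p = 0.0391, limma). With sip53 alone the difference was 0.17, with an interval of -0.21 to 0.55 (adjusted p = 0.603, limma), and the libraries overlapped. Within the batches the rise with siLATS1/2 was 0.76 and 0.63.

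The siLATS1/2 call for KRT18 stood close to the threshold of 0.05 and was lost when any 1 of the 8 libraries was left out, with differences of 0.49 to 0.89 and adjusted p-values of 0.064 to 0.245 (limma). The call for siLATS1/2/p53 against siControl was lost without siLATS1/2/p53 replicate 1 (0.89, adjusted p = 0.0676), and that against sip53 without sip53 replicate 1 (0.93, 0.11), sip53 replicate 2 (0.72, 0.237), siLATS1/2/p53 replicate 1 (0.72, 0.195) or siLATS1/2/p53 replicate 2 (0.93, 0.132). The call against sip53 was also lost without limma's mean-variance trend (adjusted p = 0.0617).

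KRT8 rose relative to KRT18 within the same libraries. The log2 level of KRT8 minus that of KRT18 was -1.12 and -1.55 in siControl and -1.06 and -1.82 in sip53. It was 0.04 and -0.14 in siLATS1/2 and 0.11 and -0.25 in siLATS1/2/p53. The 4 libraries with LATS1/2 siRNA averaged -0.06 ± 0.16 (SD, n = 4) and the 4 without it -1.39 ± 0.36 (SD, n = 4), with no overlap. The difference of 1.33 gave p = 0.0286 in a two-sided exact permutation test, the smallest p that 70 arrangements allow. An exact permutation within the cell batches has 36 arrangements and gave p = 0.0556, again the smallest possible. Both p-values only restate that the libraries did not overlap, whatever their spread. The members were taken up with their behaviour in these data known, so neither p is independent evidence.

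**Figure D2:**
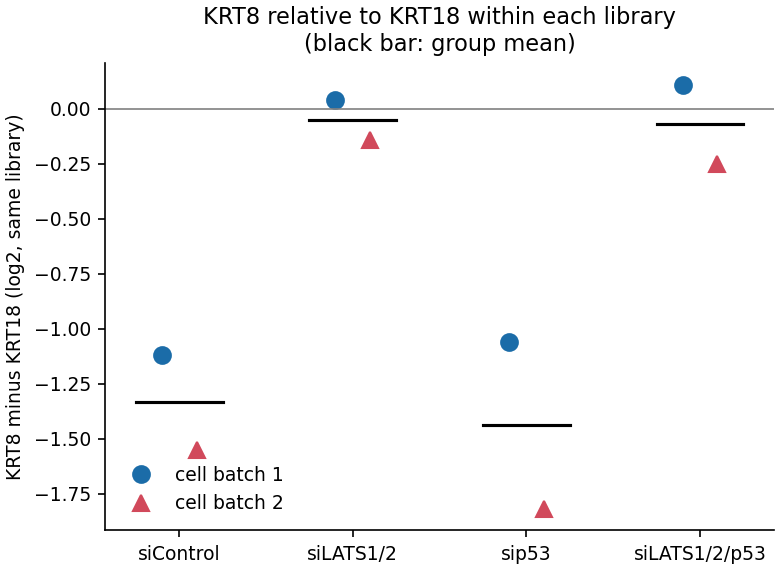
KRT8 minus KRT18 within each library (vertical axis, log2; 0 means equal deposited levels) by siRNA group, with circles for cell batch 1, triangles for cell batch 2 and black bars for group means. The 4 libraries with LATS1/2 siRNA lie between -0.25 and 0.11, and the 4 without it between -1.82 and -1.06.

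KRT7, the type II keratin of ducts and glands, followed another pattern and was lowest where p53 alone was targeted. Its levels were 13.96 and 14.20 in siControl, 14.48 and 14.45 in siLATS1/2, 13.43 and 13.42 in sip53, and 14.32 and 14.25 in siLATS1/2/p53. The sip53 libraries were below all others, and no pair of groups overlapped. KRT7 fell by 0.66 ± 0.10 (95% interval -0.90 to -0.42, 1.58-fold, adjusted p = 0.0267, limma) with sip53. It was higher in siLATS1/2/p53 than in sip53 by 0.86 ± 0.10 (0.62 to 1.10, 1.82-fold, adjusted p = 0.00726, limma). With siLATS1/2 it was 0.38 above siControl (0.14 to 0.62), which did not pass at an adjusted p of 0.0659. With cell batch as a block in the limma fit the same difference passed (adjusted p = 0.00244), and it also passed after each library was rescaled by its median ratio to the others (0.47, adjusted p = 0.0389). In siLATS1/2/p53 it was 0.20 above siControl (-0.04 to 0.44, adjusted p = 0.233, limma).

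Unlike KRT8 and KRT18, KRT7 showed no common offset between batches. Batch 2 minus batch 1 was 0.24 in siControl, -0.03 in siLATS1/2, -0.01 in sip53 and -0.07 in siLATS1/2/p53. With sip53 KRT7 fell by 0.53 in batch 1 and fell by 0.79 in batch 2. The sip53 call held without siControl replicate 1 and was lost without any 1 of the other 7 libraries, with differences of -0.67 to -0.54 and adjusted p-values of 0.0513 to 0.163 (limma). The call for siLATS1/2/p53 against sip53 was lost without either sip53 or either siLATS1/2/p53 library, at differences of 0.82 to 0.90 and adjusted p-values of 0.0542 to 0.0729 (limma).

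KRT19, the type I keratin that usually accompanies KRT7, was at the floor of 5 in every library. The floor corresponds to an estimated 14.6 to 50 reads, depending on the library's depth, and no lower level can be read. KRT7 minus KRT19 is thus KRT7 above a constant, and its difference of 0.62 between libraries with and without LATS1/2 siRNA (two-sided exact permutation p = 0.0286, smallest possible, n = 4 and 4; 0.0556 within batches) repeats the KRT7 values.

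In counts, 2 of the 3 tested simple keratins rose with siLATS1/2 (KRT8, KRT18), beside 2.81% of all 12315 tested entries called higher and 4.89% called lower. With sip53, 1 fell (KRT7), beside 2.1% of entries called lower and 1.76% called higher. With siLATS1/2/p53 over siControl, 2 rose (KRT8, KRT18), beside 9.07% of entries called higher and 5.48% called lower. With siLATS1/2/p53 over sip53, all 3 rose, beside 2.54% of entries called higher. These comparisons share groups, siControl in the first 3 and siLATS1/2/p53 in the last 2, so their counts are not separate results. In bulk RNA, a change in the RNA of each cell and a change in the share of cells that express a gene cannot be told apart. The p-values of the fit over 4 groups measure the spread between batches of 1 line. Those of the fit with batch as a block measure the spread left after a common batch offset is removed, with 3 residual degrees of freedom.

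Leaving out both libraries of lowest estimated depth, siControl replicate 1 and siLATS1/2/p53 replicate 1, ended every call among these keratins. KRT8 was then 2.33 above siControl in siLATS1/2 (adjusted p = 0.111, limma) and 2.33 in siLATS1/2/p53 (0.131). KRT18 was 0.83 (0.13) and 1.02 (0.125) above siControl in the same comparisons, and KRT7 was -0.78 with sip53 (0.109). Against sip53, siLATS1/2/p53 was then higher by 1.91 for KRT8 (adjusted p = 0.166, limma), 0.72 for KRT18 (0.187) and 0.82 for KRT7 (0.0749). Both left-out libraries were of batch 1. siControl and siLATS1/2/p53 then held batch 2 alone, while siLATS1/2 and sip53 kept both batches. KRT8 and KRT18 were lower in batch 2 in every group, so a difference between such groups also carries the batch difference. Within batch 2, KRT8 rose by 2.04 with siLATS1/2 and by 2.33 with siLATS1/2/p53 over siControl. Over sip53, KRT8 rose by 2.4 with siLATS1/2/p53 in that batch. Far fewer entries of the whole table were called for siLATS1/2 than with all 8 libraries.

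No simple keratin was called when p53 siRNA was added to LATS1/2 siRNA. Between siLATS1/2/p53 and siLATS1/2, KRT8 differed by 0.28 (-0.62 to 1.18, adjusted p = 0.645), KRT18 by 0.30 (-0.08 to 0.68, adjusted p = 0.236) and KRT7 by -0.18 (-0.42 to 0.06, adjusted p = 0.258), all by limma. The count of 0 of 3 stands beside 14.5% of all entries called in either direction. None of the 3 had an unadjusted p under 0.05, beside 33.2% of all entries. The median of all tested entries was itself 0.153 higher in that comparison, so relative to the typical gene KRT8 differed by 0.13, KRT18 by 0.14 and KRT7 by -0.34. With cell batch as a block, KRT8 (adjusted p = 0.0284) and KRT18 (0.00513) passed as higher, beside 33.8% of entries called higher. With the block and the rescaling together neither passed (0.335 and 0.145), and KRT7 passed as lower at an adjusted p of 0.00376.

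Whether the response to LATS1/2 siRNA differed with p53 siRNA present was tested as an interaction. It was 0.22 ± 0.54 for KRT8 (-1.05 to 1.48, adjusted p = 0.954), 0.13 ± 0.23 for KRT18 (-0.40 to 0.67, adjusted p = 0.93) and 0.48 ± 0.15 for KRT7 (0.14 to 0.82, adjusted p = 0.74) in limma. In limma no entry of the whole table was called for the interaction, 0% of 12315, and 807 had an unadjusted p under 0.05, KRT7 among them at 0.0122. With cell batch as a block KRT7 was called at an adjusted p of 0.0459, beside 1.75% of entries called higher, and with the block and rescaling together it was not (0.38, adjusted p = 0.107, limma). In size, the KRT7 difference with LATS1/2 siRNA was 0.38 without p53 siRNA, which did not pass, and 0.86 with it. For KRT8 the corresponding differences were 1.98 and 2.20.

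**Figure D3:**
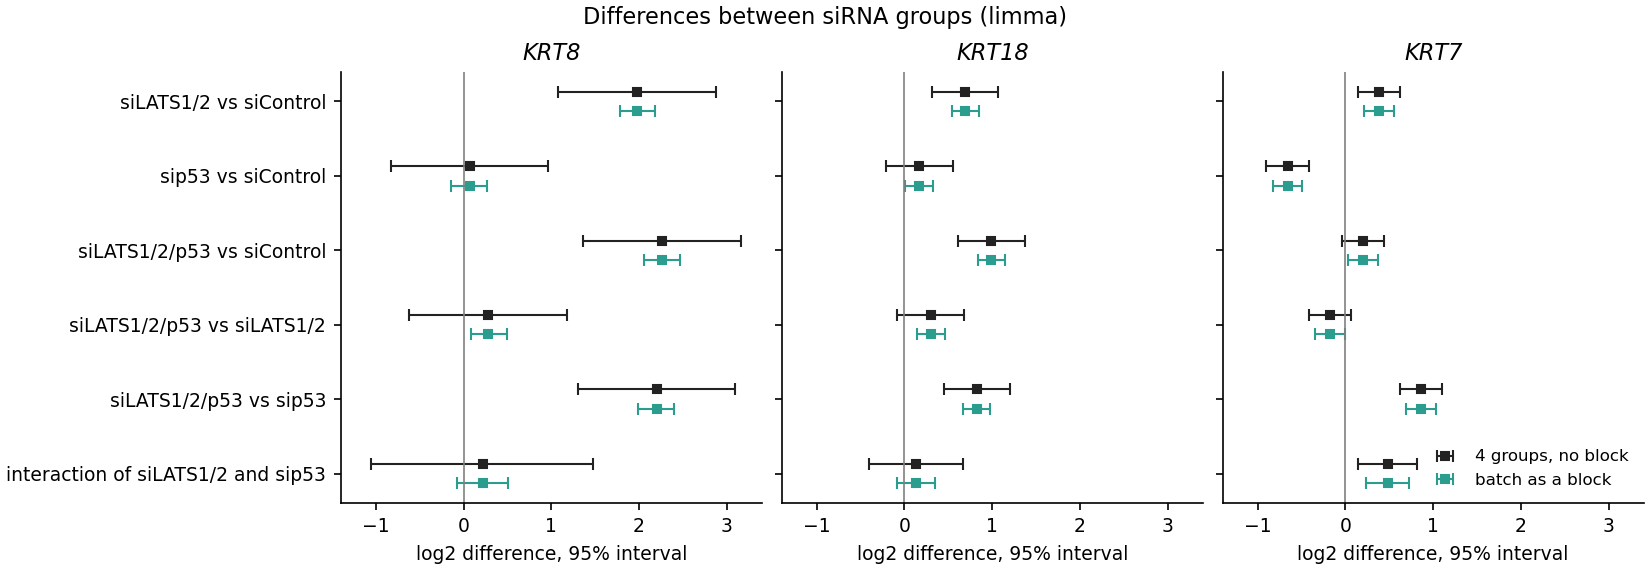
Log2 differences (horizontal axis, points) with 95% intervals (bars) for KRT8, KRT18 and KRT7 in 5 comparisons of siRNA groups and the interaction, from the limma fit over 4 groups (black) and the fit with cell batch as a block (green). The block leaves each difference in place and narrows the intervals of KRT8 most, from 1.08 to 2.88 down to 1.78 to 2.18 for siLATS1/2 against siControl.

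As a share of all keratin signal per length, the KRT8 and KRT18 pair was a small part that grew with LATS1/2 siRNA. It made up 2.21% and 1.24% of that signal in siControl and 2.47% and 1.51% in sip53. In siLATS1/2 it made up 5.33% and 3.23%, and in siLATS1/2/p53 5.10% and 3.68%. All 4 libraries with LATS1/2 siRNA were above all 4 without. KRT7 made up 10.79% and 9.32% in siControl, 16.45% and 13.60% in siLATS1/2, 7.51% and 5.93% in sip53, and 11.93% and 10.58% in siLATS1/2/p53. The basal pair KRT5 and KRT14 together held 32.27% and 37.63% in siControl and 25.19% and 32.56% in siLATS1/2, which overlapped across batches and were lower with siLATS1/2 within each batch. It held 36.16% and 40.82% in sip53 and 27.88% and 32.41% in siLATS1/2/p53, which did not overlap.

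The cell batches differed in many keratins. Among the 18 keratin genes tested, KRT8, KRT18 and KRT80 were lower in batch 2 than in batch 1 in all 4 groups. The 9 genes KRT4, KRT5, KRT6A, KRT6B, KRT6C, KRT13, KRT14, KRT16 and KRT17 were higher in batch 2 in all 4 groups. For KRT14, a basal keratin, batch 2 minus batch 1 was 0.86 in siControl, 0.81 in siLATS1/2, 0.69 in sip53 and 0.82 in siLATS1/2/p53. Since each group holds 1 library of each batch, the batches are balanced across the siRNA groups.

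Of the 15 other keratin genes tested, few passed the test. KRT80, a type II keratin of differentiating epithelia, was at 6.73 and 6.48 in siControl, 9.22 and 8.46 in siLATS1/2, 7.08 and 6.78 in sip53, and 9.12 and 8.50 in siLATS1/2/p53. It rose by 2.23 ± 0.30 (4.70-fold, adjusted p = 0.00839, limma) with siLATS1/2 and by 2.21 ± 0.30 (adjusted p = 0.00484) with siLATS1/2/p53, and its sip53 difference was 0.33 (adjusted p = 0.581). Its libraries with and without LATS1/2 siRNA did not overlap, as for KRT8. KRT34, a hair keratin, was at 6.24 and 5.99 in siLATS1/2 and at the floor in all 6 other libraries. It met the filter through siLATS1/2 alone, so its call there was favoured by the filter and is given no weight. With siLATS1/2, 2 of the 15 were called higher, KRT80 and the KRT34 set aside above, and 0 lower. Over all entries 2.81% were called higher and 4.89% lower. The median difference of the 15 was -0.36, beside -0.074 over all entries. With sip53 and with siLATS1/2/p53 the counts that rose were 0 and 1, and 0 fell in either. Among all entries 1.76% and 9.07% were called higher, and 2.1% and 5.48% lower, in the same order. The medians were 0.11 and 0.10, beside 0.064 and 0.082. The hair keratins KRT81 and KRT86 were not called against siControl, with differences of 0.01 and -0.36 for siLATS1/2. Between siLATS1/2/p53 and siLATS1/2, KRT86 was higher by 0.82 (adjusted p = 0.0291, limma) and KRT10 by 0.62 (0.048), and neither was called after rescaling.

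With cell batch as a block many more entries of the whole table passed, 32% for siLATS1/2, 26% for sip53 and 39.2% for siLATS1/2/p53 against siControl. Of the 12 tested members of the stratified and stress list, 8 were then lower with siLATS1/2 and 1 was higher (KRT80), beside 21.4% and 10.5% of all entries. After rescaling as well, the counts were 7 lower and 1 higher. KRT6B, a stress keratin, differed by -1.15 with siLATS1/2 (adjusted p = 0.219 without the block and 1.21e-06 with it, limma). KRT14 differed by -0.62 (0.409 and 1.26e-05) and KRT5 by -0.44 (0.367 and 0.00367). KRT6A, KRT6B and KRT6C are close copies (97.9% coding identity between KRT6A and KRT6C), so their separate values are uncertain, as are those of KRT81 and KRT86 at 93.9%.

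**Figure D4:**
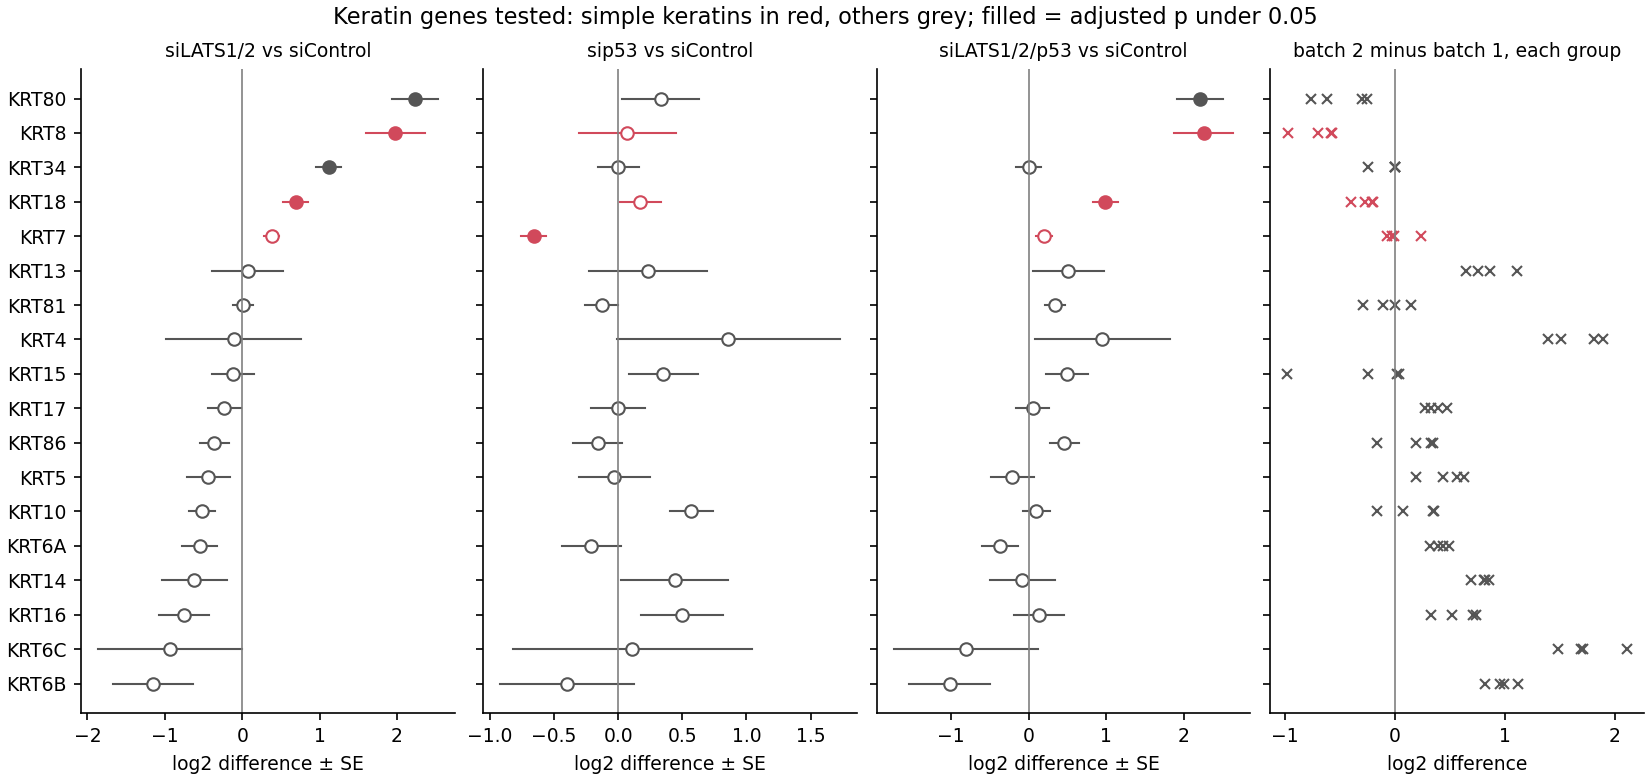
Log2 difference ± SE (horizontal axis) of the 18 tested keratin genes for siLATS1/2, sip53 and siLATS1/2/p53 against siControl, simple keratins in red and others grey, filled where the limma adjusted p was under 0.05; the right panel gives batch 2 minus batch 1 in each of the 4 groups as crosses. KRT80 and KRT8 lead the siLATS1/2 panel at 2.23 and 1.98, and KRT7 is the only filled point for sip53.

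Other filament genes and keratin-binding genes were taken from lists. Of 4 tested non-keratin filament genes, VIM, which encodes the mesenchymal filament protein vimentin, fell by 0.80 with siLATS1/2 (adjusted p = 0.0057, limma), 0.50 with sip53 (0.0393) and 0.80 with siLATS1/2/p53 (0.00302). VIM was at 13.14 and 13.16 in siControl and 12.45 and 12.25 in siLATS1/2, with no overlap. LMNB1, a nuclear lamin, rose by 0.65 with siLATS1/2/p53 (adjusted p = 0.0114), while LMNA and LMNB2 did not pass. Mean LMNB1 was 11.47 in siControl, 11.32 in siLATS1/2, 12.03 in sip53 and 12.11 in siLATS1/2/p53, so most of the rise was present with sip53 alone. Among 17 genes of keratin-binding and linker proteins, 2 rose with siLATS1/2, 1 with sip53 and 5 with siLATS1/2/p53, and 0 fell in each, beside 2.81%, 1.76% and 9.07% of all entries called higher. Their medians were -0.02, 0.09 and 0.10, beside -0.074, 0.064 and 0.082 over all entries. With the block the counts were 4 higher and 1 lower with siLATS1/2, 5 and 0 with sip53, and 6 and 0 with siLATS1/2/p53, beside 32%, 26% and 39.2% of all entries called with the block, which are shares near those of the list. EPPK1 (epiplakin, which binds keratin filaments) rose by 1.33 with siLATS1/2 (adjusted p = 0.00669) and 1.38 with siLATS1/2/p53 (0.00298). The plakins PPL (periplakin) and EVPL (envoplakin) rose by 1.41 and 0.62 with siLATS1/2/p53 (adjusted p = 0.0162 and 0.00971, limma). FBF1, which binds keratins, rose by 1.07 in that comparison (adjusted p = 0.00734, limma). Mean FBF1 was 7.44 in siControl, 7.42 in siLATS1/2, 8.27 in sip53 and 8.51 in siLATS1/2/p53, so most of this rise too was present with sip53 alone.

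Most of the tested luminal markers rose and most basal markers fell in the group with both siRNAs. The luminal list held 14 genes that are not keratins, and 9 were tested. CLDN3, CLDN4, PROM1 and KIT were at the floor in all 8 libraries, and PRLR was above it in only 1. Of the 9 tested, 6 rose with siLATS1/2 and 0 fell (median 0.64). The count with sip53 was 1 higher (median 0.18), and 7 rose and 1 fell with siLATS1/2/p53 (median 1.14). Over all entries 2.81% were called higher with siLATS1/2, 1.76% with sip53 and 9.07% with siLATS1/2/p53, and the medians were -0.074, 0.064 and 0.082. CLDN7, a tight junction claudin, rose by 1.65 with siLATS1/2/p53 (adjusted p = 0.00134, limma), ERBB3, a receptor of the EGF receptor family, by 1.91 (0.00239), and EPCAM, a surface glycoprotein, by 0.91 (0.0058). The 1 that fell was AREG, the EGF family ligand amphiregulin, by 1.41 (adjusted p = 0.00661). Of 12 basal markers, 1 rose with siLATS1/2 (DST), 2 fell with sip53, and 8 fell with siLATS1/2/p53. All entries called lower were 4.89%, 2.1% and 5.48% in the same order. The basal medians were -0.23, -0.54 and -0.74, so much of the fall was present with sip53 alone. Between siLATS1/2/p53 and sip53 their median was -0.18, with 0 of the 12 called and 6 lower with the block. In that comparison 451 of 12315 entries were called in either direction, and 2720 with the block. S100A2 fell by 1.53 with siLATS1/2/p53 (adjusted p = 0.0076, limma), TP63, the p63 factor of basal cells, by 0.92 (0.0146), and COL17A1, a hemidesmosome collagen, by 0.99 (0.0217). Their means in sip53 were 14.93, 10.4 and 14.76, against 16.01, 10.99 and 15.25 in siControl. With the block the basal counts were 2 higher and 7 lower with siLATS1/2, 0 and 8 with sip53, and 0 and 10 with siLATS1/2/p53, and the luminal count with sip53 was 4 higher and 3 lower. With the block 10.5% of all entries were called higher and 21.4% lower with siLATS1/2, and 26% and 39.2% were called in either direction with sip53 and siLATS1/2/p53. Without the 2 libraries of lowest estimated depth, no gene of the luminal, basal, keratin-binding, other filament, other keratin or transcription factor lists passed against siControl.

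Factors linked to simple or basal epithelial programs were mixed. Of 24 tested, 3 rose and 2 fell with siLATS1/2, 0 rose and 2 fell with sip53, and 7 rose and 3 fell with siLATS1/2/p53. After rescaling the last count was 3 and 3, and with the block the counts were 7 and 9, 5 and 7, and 13 and 5. Over all entries 2.81% were higher and 4.89% lower with siLATS1/2, 1.76% and 2.1% with sip53, and 9.07% and 5.48% with siLATS1/2/p53, and with the block 32%, 26% and 39.2% were called. The medians of the 24 were -0.19, 0.00 and 0.30, beside -0.074, 0.064 and 0.082. ELF3, an epithelial ETS factor, rose by 2.48 with siLATS1/2/p53 (adjusted p = 0.00302, limma) and was 0.44 above siControl in siLATS1/2 (0.398). GRHL3, an epithelial grainyhead factor, rose by 1.44 with siLATS1/2/p53 (adjusted p = 0.00124) and by 0.74 with siLATS1/2 (0.0143). SNAI2, which encodes the repressor SLUG, fell by 2.13 and by 1.65 in the same comparisons (0.0021 and 0.00815). YAP1 fell by 0.75 with siLATS1/2/p53 (adjusted p = 0.00698). Mean YAP1 was 12.58 in siControl, 12.15 in siLATS1/2, 11.94 in sip53 and 11.83 in siLATS1/2/p53. The sip53 means of ELF3, GRHL3 and SNAI2 were 9.8, 8.62 and 10.33, against 9.08, 8.22 and 11.26 in siControl.

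The genes whose levels ran most like each keratin over the 8 libraries were found by Pearson correlation, as a description that shares libraries, depth and batch. KRT8 ran closest to TMPRSS3 (0.997), C9orf5 (0.996) and NALCN (0.995), and TMPRSS3 was at the floor in siControl replicate 2 and sip53 replicate 2. KRT18 ran closest to IGFBP3 (0.987), LAMB2 (0.983) and ARMC7 (0.981), and KRT7 to PINK1 (0.992), FRK (0.989) and KCTD4 (0.984). IGFBP3, which encodes an IGF binding protein, was at 6.09 and 5.78 in siControl, 8.38 and 7.38 in siLATS1/2, 6.81 and 6.32 in sip53, and 8.48 and 8.36 in siLATS1/2/p53. PINK1, which encodes a mitochondrial kinase, was at 10.32 and 10.67, 10.79 and 10.88, 9.72 and 9.75, and 10.78 and 10.60 in that order, lowest in sip53 as KRT7 was. Among the keratins, KRT8 correlated at 0.968 with KRT18 and at 0.974 with KRT80, and KRT7 at 0.693 with KRT8 and 0.564 with KRT18.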

How the data were processed

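RNA-seq of 8 libraries was analysed from 1 table, which held the same values as the 8 per-sample files. The authors deposited values per gene symbol with a floor of 5, which were taken as log2 (log2 scale and base read from the values; the scaling is not given in the sources used here). Reads were aligned with TopHat and build hg19 is named, per the submitters' processing notes. Low linear values were evenly spaced alike across genes, so the deposited log2 values were treated as not divided by length.

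The 12315 entries with values over the floor in 2 or more libraries entered a fit with limma 3.58.1 in R 4.3.3 (lmFit, eBayes with a mean-variance trend) over 4 groups with 4 residual degrees of freedom, with no pseudocount, and p-values were adjusted by Benjamini-Hochberg over all entries at a threshold of 0.05. The fit was tested on simulated data with 200 changed genes. Cell batch, which the labels state, pairs the libraries; deviations of same-batch libraries correlated at 0.565 to 0.726 between groups, and batch as a block was an alternative. Other alternatives were rescaling, other filters, an added linear offset, no trend, fewer groups and leaving out libraries. Keratin lengths, exon overlaps and coding sequences came from GENCODE release 29. The keratins and the gene lists were chosen with earlier results of these data known. Named genes were the 4 members, the targeted genes, tested keratins, up to 4 genes of each list with the smallest p in siLATS1/2/p53 against siControl, and the 3 entries most correlated with each member; AREG, DST and CD68 were named after their values were seen, and some items the rule names are not reported here.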

Additional observations from a re-analysis of the deposited data

How the results depend on the processing

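Under the alternatives run, no called difference of KRT7, KRT8 or KRT18 changed sign. The count of simple keratins called in siLATS1/2 against siControl was 2 and became 1 with no filter on low values, without the mean-variance trend and with only the groups compared (KRT18 lost each time), and 0 without the 2 libraries of lowest estimated depth, a choice made after seeing the data. The count of 1 for sip53 became 0 with only the groups compared and 0 without those 2 libraries. The count of 2 for siLATS1/2/p53 against siControl and the count of 3 against sip53 both became 0 without them, and the latter was 2 without the trend (KRT18 lost). Against siLATS1/2 the count of 0 became 2 with the replicate block and 1 with the block and rescaling. For the interaction it was 0, became 1 with the block and was 0 with the block and rescaling. Among these keratins the block changed 1 other call, KRT7 in siLATS1/2, and no further one. Exact permutation within the replicate block gave p = 0.0556 for KRT8 minus KRT18 (1.33) and for KRT7 minus KRT19 (0.62), the smallest p it allows.

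Leaving out 1 library at a time gave counts of 0 to 1 for siLATS1/2, 0 to 1 for sip53, 0 to 2 for siLATS1/2/p53 against siControl, 0 to 0 against siLATS1/2, 0 to 3 against sip53 and 0 to 0 for the interaction. KRT8 minus KRT18 ran from 1.18 to 1.44 (p = 0.0286 each time, exact permutation, the smallest that 7 libraries allow). KRT7 minus KRT19 ran from 0.51 to 0.77 (p = 0.0286 to 0.0571, exact permutation). The libraries with and without LATS1/2 siRNA did not overlap in either, so these p-values were nearly fixed in advance and show no robustness. Of 303 single-gene alternatives, 251 kept their side of the threshold, 45 lost a call and 7 gained one. The 251 include differences that were not called with all 8 libraries and so had no call to lose. Among called differences, KRT18 with siLATS1/2 lost its call in 12 of 17 alternatives and KRT7 with sip53 in 9 of 17. KRT8 and KRT18 with siLATS1/2/p53 over siControl each lost theirs in 2 of 17. Each group had 2 libraries, and a level under the floor, as for KRT19, could not be read. Leaving out any 1 library also lowered the number of whole-table calls against siControl and between siLATS1/2/p53 and sip53. The loss of calls was thus not particular to these keratins. Rescaling moved the share of calls that were higher from 36.5% to 55.5% for siLATS1/2, 45.7% to 26% for sip53, 62.3% to 47.5% for siLATS1/2/p53 against siControl and 77.9% to 45.7% against siLATS1/2.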
